A study of Mus musculus with 25 samples.

Results

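Induced macrophages that carried an shRNA against Ebf1 were compared directly with induced macrophages that carried an shRNA against Pou2af1, 2 arrays against 2. The 4 arrays were those of the series' 25 whose titles name either knockdown, and the scramble shRNA arrays of the same cells took no part in the test. All probe sets with 1 annotated gene symbol were used, 34945 of the 45101 on the array, which stand for 18193 genes. Both groups were made from C10 cells, a cloned mouse pre-B cell line in which estradiol switches on the myeloid transcription factor C/EBPα, so each group models conversion in 1 line. In both, lentivirus delivered the shRNA before conversion, and transduced cells were selected with puromycin for 2 days. The labels give the estradiol dose, 100 nM, and growth with the cytokines IL-3 and CSF-1 at 10 nM for the scramble arrays only. Levels are log2 signals, where a difference of 1 is a doubling, and differences are Ebf1 shRNA minus Pou2af1 shRNA unless stated otherwise. Whether replicates were separate cultures is not in the labels, so each p-value reflects the spread among these 4 arrays alone, which may be technical. Each SE and p-value combines the spread of the probe set itself with a spread pooled over all probe sets tested.

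Ebf1 is a DNA-binding factor that commits blood progenitors to the B cell lineage, where it acts with Pax5. Pou2af1, also called OCA-B, is a coactivator that joins the octamer-binding factors Oct1 and Oct2 at immunoglobulin promoters. Macrophages defend against viruses with interferon genes and against bacteria with chemokines, inflammatory cytokines and proteases, and these programmes are switched on largely by different transcription factors. Secreted type I interferon binds the receptor pair Ifnar1 and Ifnar2, the kinases Jak1 and Tyk2 activate STAT proteins, Stat2 among them, which join Irf9 on interferon-stimulated response elements of antiviral genes. NF-kappaB dimers, held in the cytoplasm by inhibitors such as Nfkbia, switch on many inflammatory genes.

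The targeted genes were read first. Ebf1 stood at 7.22 and 7.35 with its own shRNA and at 8.75 and 8.59 in the arrays labelled Pou2af1 shRNA, beside 8.43 and 8.42 with scramble shRNA. Both Ebf1 shRNA arrays lay below the others, and the difference was −1.39 ± 0.12 (SE, limma adjusted p = 0.00562), with 3 of 4 further Ebf1 probe sets called the same way. Its adjusted p was 0.0534 without Pou2af1 replicate 1, at −1.31, and 0.0703 with all 25 arrays in the model. Pou2af1 stood at 11.34 and 11.26 in the arrays labelled Pou2af1 shRNA, against 11.25 and 11.06 with scramble shRNA and 12.00 and 11.81 with Ebf1 shRNA. It was therefore not lower than scramble under its own shRNA, and every direction below is between libraries with these labels. The Pou2af1 difference of 0.61 ± 0.12 (adjusted p = 0.04) was lost without any 1 of the 4 arrays, at 0.51 to 0.70 (adjusted p from 0.0639 to 0.184), and with all 25 arrays in the model (adjusted p = 0.788). Replicates correlated at 0.989 (Ebf1 shRNA) and 0.992 (Pou2af1 shRNA) over probe sets and arrays of different groups at 0.964 to 0.965. Array medians spanned 6.25 to 6.26, and the 40th percentile of an array, used below as a guide to dim signals, spanned 5.57 to 5.60. The Gapdh control probes read higher at the 3′ than at the 5′ end by 0.47 and 0.41 with Ebf1 shRNA and by 0.61 and 0.59 in the arrays labelled Pou2af1 shRNA. The 2 scramble arrays, at 0.74 and 0.47, were farther apart than these groups. The same reading of the actin control probes was ordered the other way, at −0.0312 and −0.0796 with Ebf1 shRNA and −0.195 and −0.0841 in the arrays labelled Pou2af1 shRNA. The part of RNA integrity in the differences was not tested.

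Of 12420 genes with a signal above the 40th percentile in at least 2 of the 4 arrays, 1539 differed at an adjusted p under 0.05, which is 12.4%. With Ebf1 shRNA 652 were higher (5.25%) and 887 lower (7.14%), and the median over all genes tested was −0.02. These shares of all genes are the background of every list count below. Without 1 array the count was 666 or 712 when an Ebf1 array was left out and 261 or 252 when replicate 1 or 2 labelled Pou2af1 shRNA was left out, where the lone array was assumed to vary like the other group. With all 25 arrays in the model, which pools the spread of the 10 groups, it was 668 (326 higher and 342 lower). Of 225 genes called over the 4 arrays that were in a list or named by rule, 130 had no call in this 25-array model, 66 none with the replicate number as a block and 63 none with no filter. Beside most genes below, the adjusted p of the 25-array model is given where it ended a call, and the difference itself is the same there. Differences of at least 1 and past the threshold were found for 554 genes, 250 higher and 304 lower, and differences of at least 2 for 121. The scramble mean lay between the groups for 1081 of the 1539 genes, above both for 135 and below both for 323. Regardless of the test, both Ebf1 arrays lay above both arrays labelled Pou2af1 shRNA for 28.4% of genes tested and below both for 33.2%. Of the 15 lowest named genes 8 were antiviral effectors, interferon-induced GTPases or nucleic acid sensors, and of the 15 highest 0 were. In 26 of these 30 genes the scramble mean lay between the groups and in 4 below both. None of the 30 lost its call where it was tested without 1 array, but 7 with a lower group under the 40th percentile were not tested when an array of the brighter group was left out.

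**Figure D1:**
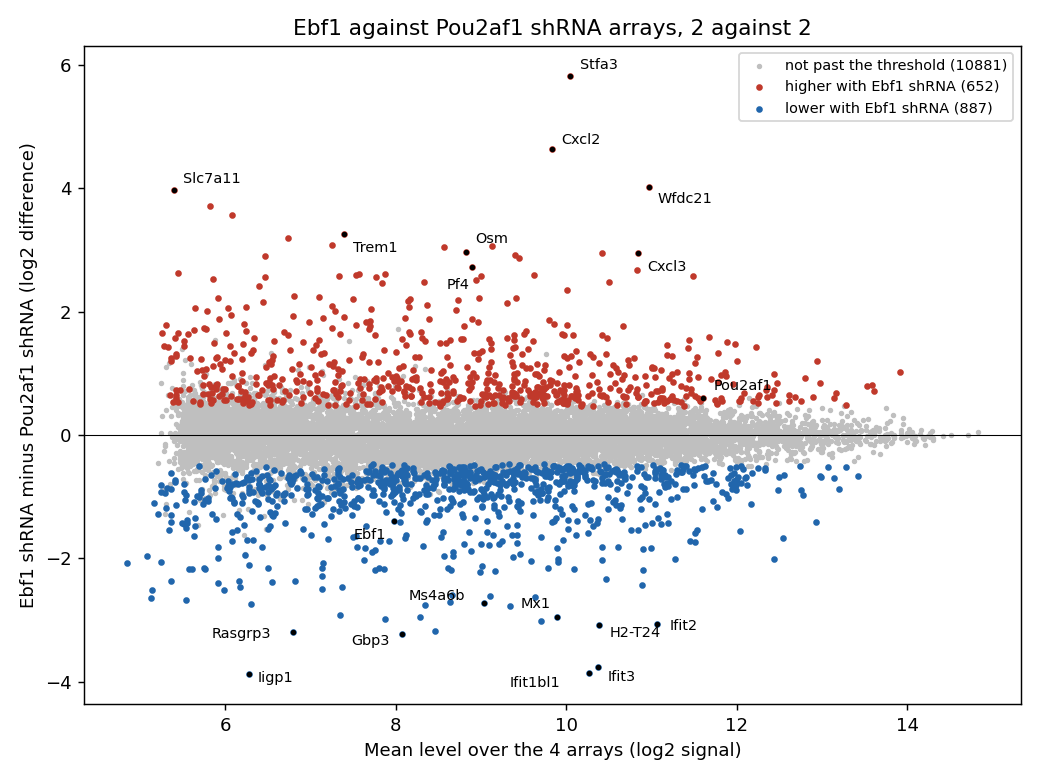
Each point is 1 of 12420 genes, with its mean level over the 4 arrays (log2 signal) across and the log2 difference, Ebf1 shRNA minus Pou2af1 shRNA, upward. Red points (652) were higher and blue points (887) lower with Ebf1 shRNA at a limma adjusted p under 0.05, grey points did not pass, and black points are labelled genes. Stfa3 is the highest at 5.83 and Iigp1 the lowest at −3.88.

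Antiviral effector genes were lower with Ebf1 shRNA than in the arrays labelled Pou2af1 shRNA. Of 34 on the array 33 were tested, 28 were lower and 0 higher, with a median of −1.04 against −0.02 over all genes. Both Ebf1 arrays lay below both others in 30 of the 33, against 33.2% of all genes tested. The lower count was 12 without Pou2af1 replicate 1, 13 without replicate 2 and 8 in the 25-array model, and the median stayed between −1.10 and −1.005 over the alternatives. As fewer cells of a kind and less RNA per cell cannot be told apart in bulk RNA, these levels are averages over each culture.

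The Ifit genes encode proteins that bind foreign RNA and block its translation. Ifit3 read 8.59 and 8.40 with Ebf1 shRNA and 12.23 and 12.28 in the arrays labelled Pou2af1 shRNA, with 10.06 and 9.81 under scramble shRNA. The groups did not overlap, the scramble arrays lay between them, and the difference was −3.76 ± 0.12 (adjusted p = 0.0017), a 13.5-fold lower signal. Ifit1bl1, a relative of Ifit1, read 8.39 and 8.30 against 12.22 and 12.16 and differed by −3.85 ± 0.10 (adjusted p = 0.0017). Ifit2 read 9.59 and 9.46 against 12.55 and 12.64, a difference of −3.06 ± 0.11, and Ifit1 9.67 and 9.66 against 12.06 and 12.15, a difference of −2.44 ± 0.10. All 4 Ifit genes thus showed the scramble arrays between the groups. These genes are of 1 family, so their probe sets may share signal. Ifit1bl1, Ifit2 and Ifit3 kept their calls with shared probe sets left out. Mx1, a dynamin-like GTPase that blocks influenza viruses, read 8.36 and 8.47 against 11.34 and 11.39, with a difference of −2.95 ± 0.11 (adjusted p = 0.0017). Its relative Mx2 differed by −2.22 ± 0.10 and the nucleotide kinase Cmpk2 by −2.61 ± 0.12. Viperin, encoded by Rsad2, the RNase Isg20 and the Z-nucleic acid sensor Zbp1 were lower too, at −1.66 ± 0.10, −2.33 ± 0.13 and −2.19 ± 0.10. The smallest called differences were those of the RNA-activated kinase Eif2ak2 (−0.55) and of Parp12 (−0.60). These calls ended without any 1 array (−0.61 to −0.49, adjusted p up to 0.195, and −0.64 to −0.55, adjusted p up to 0.168). In the 25-array model they ended too, as did those of Ifit1 and Rsad2, with adjusted p of 0.501, 0.551, 0.33 and 0.335. Parp12 was the called member whose scramble mean, 9.14, lay above both groups. Members not past the threshold were Ifitm6 (0.47), Ifitm3 (−0.28), Ifi27l2a (−0.20), Ifitm2 (0.12) and Ifitm1 (0.08), so 4 of these 5 are Ifitm genes, whose products block virus entry. Ifi44l missed the filter on dim signals.

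Interferon-induced GTPases, which attack the vacuoles of intracellular microbes, and the Schlafen genes were lower as well. Of 17 tested members 14 were lower and 2 higher, with a median of −1.43 and of −1.43 to −1.30 over the alternatives. Lower genes numbered 7 without either array labelled Pou2af1 shRNA, and the higher count was 1 without Ebf1 replicate 2 and 0 without any other array. Calls numbered 5 lower and 0 higher in the 25-array model. Gbp3 read 6.52 and 6.40 with Ebf1 shRNA and 9.73 and 9.63 in the arrays labelled Pou2af1 shRNA, a difference of −3.22 ± 0.11 (adjusted p = 0.0017). Its scramble arrays, at 9.24 and 9.01, lay close to the higher group. Gbp6 read 6.97 and 6.78 against 10.17 and 9.91, a difference of −3.17 ± 0.14, but here the scramble arrays, at 7.32 and 7.10, lay close to the Ebf1 shRNA arrays. Iigp1 read 3.90 and 4.78 against 8.18 and 8.26, at 4.38 and 4.61 with scramble shRNA, and had the lowest difference of all genes tested (−3.88 ± 0.30, adjusted p = 0.00425). The Ebf1 shRNA arrays were under the 40th percentile there, so background limits this value and it is no exact size. Gbp2 (−1.87 ± 0.10), Gbp7 (−1.85 ± 0.10), Irgm2 (−1.72 ± 0.10), Igtp (−1.54 ± 0.18) and Irgm1 (−1.30 ± 0.10) were lower as well. Schlafen genes, some of which restrain cell growth, went both ways. Slfn8 was lower at −1.72 ± 0.11, whereas Slfn4 (12.97 and 12.88 against 12.03 and 11.84) and Slfn1 (12.89 and 12.88 against 12.39 and 12.29) were higher by 0.99 ± 0.12 and 0.55 ± 0.10. The adjusted p in the 25-array model was above the threshold for Gbp2 (0.189), Gbp7 (0.088), Irgm2 (0.331), Igtp (0.268), Irgm1 (0.0692), Slfn8 (0.25), Slfn4 (0.444) and Slfn1 (0.443). The call of Igtp also ended without Pou2af1 replicate 1 (−1.55, adjusted p = 0.0829) or 2 (−1.52, adjusted p = 0.0824), and that of Slfn4 without Ebf1 replicate 1 (0.94, adjusted p = 0.0513) or Pou2af1 replicate 1 (1.08, adjusted p = 0.0685) or 2 (0.89, adjusted p = 0.0877). Slfn1 lost its call without any 1 array (0.50 to 0.59, adjusted p up to 0.183) and stood at 0.21 (adjusted p = 0.208) with its probe sets averaged. Slfn2 did not pass, at −0.10, and Gbp8 missed the filter.

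**Figure D2:**
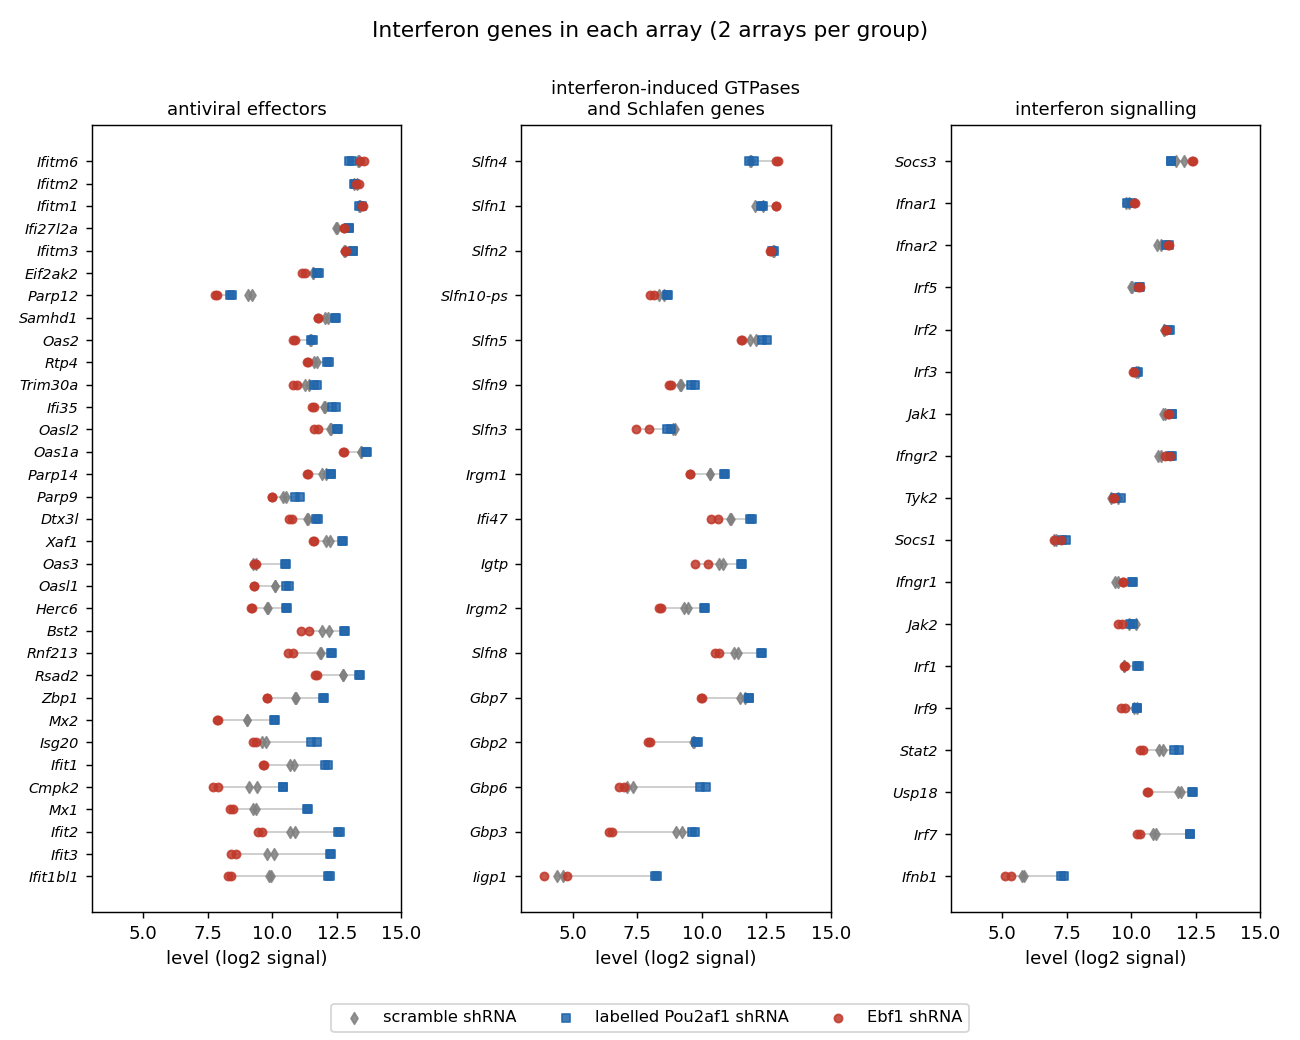
Levels (log2 signal) of all tested antiviral effectors, interferon-induced GTPases with Schlafen genes, and interferon signalling genes, 1 symbol per array, ordered by difference. Red circles are Ebf1 shRNA arrays, blue squares arrays labelled Pou2af1 shRNA and grey diamonds scramble shRNA arrays, 2 per group. Ifit1bl1 and Iigp1 lie farthest apart, at −3.85 and −3.88, while Ifnar1 and Ifnar2 differ by 0.18 and 0.05.

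Promoters are shown for lower genes of both interferon lists and for higher chemokines, so that the letters before their start sites can be read beside the levels. The interferon-stimulated response element was searched as GAAA, any 2 bases and GAAA on both strands in the 300-base RefSeq windows of GRCm38.p6, from 250 bases before to 50 after the start site, 1 window per gene. A match was held by 3.49% of all 27025 windows and by 2.97% of the 10001 tested genes with a window. Of the 714 genes that were lower and had a window, 63 held it (8.82%), of 517 higher genes 21 (4.06%) and of 8770 genes not past the threshold 2.43%. Among the antiviral effectors 11 of 25 windows held it, and among the GTPases and Schlafen genes 9 of 14. The window of Ifit2 held no match, which says only that these letters are not in it. The 200 bases before the start site are printed 5′ to 3′ in the direction of the gene, with matches in capitals, for 3 Ifit genes (Ifit3, chr19:34583329-34583528, plus strand, Ifit1, chr19:34640689-34640888, plus strand, and Ifit1bl1, chr19:34601969-34602168, minus strand) and Gbp3 (chr3:142559844-142560043, plus strand).
Ifit3: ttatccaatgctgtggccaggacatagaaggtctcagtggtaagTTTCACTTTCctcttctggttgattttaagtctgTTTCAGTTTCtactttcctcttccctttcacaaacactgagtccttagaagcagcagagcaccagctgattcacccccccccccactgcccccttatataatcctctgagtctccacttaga
Ifit1: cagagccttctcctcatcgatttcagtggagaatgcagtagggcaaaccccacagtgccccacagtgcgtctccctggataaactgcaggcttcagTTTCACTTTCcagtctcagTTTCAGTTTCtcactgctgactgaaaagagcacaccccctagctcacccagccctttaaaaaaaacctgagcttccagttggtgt
Ifit1bl1: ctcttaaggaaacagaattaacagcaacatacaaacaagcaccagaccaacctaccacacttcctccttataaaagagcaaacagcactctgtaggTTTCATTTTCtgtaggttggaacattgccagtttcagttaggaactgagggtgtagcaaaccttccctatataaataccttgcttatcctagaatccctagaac
Gbp3: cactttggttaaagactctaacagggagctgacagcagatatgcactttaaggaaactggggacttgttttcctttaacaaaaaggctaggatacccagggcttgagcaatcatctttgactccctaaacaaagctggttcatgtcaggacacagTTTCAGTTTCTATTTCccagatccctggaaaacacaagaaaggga
The matches begin at −156 and −122 from the start site in Ifit3, at −104 and −85 in Ifit1, at −104 in Ifit1bl1 and at −45 and −39 in Gbp3, where they overlap. Each is printed as its reverse complement. The letters alone are no evidence of a bound factor. The NF-kappaB motif, searched as GGG, any 2 bases and TTTCC on both strands in the same windows, was held by 1.62% of all windows, by 2.32% of higher, 1.4% of lower and 1.64% of uncalled genes with a window. Among chemokine ligands 3 of 13 windows held it, those of Cxcl2, Cxcl3 and the uncalled Ccl9. Among inflammatory cytokine and NF-kappaB genes 5 of 21 did, those of the higher Il6 and Nfkbia, the lower Tnfaip3 and the uncalled Nfkb2 and Rel. It is shown for the chemokines Cxcl2 (chr5:90903699-90903898, plus strand) and Cxcl3 (chr5:90785901-90786100, plus strand), the highest chemokine genes in this comparison.
Cxcl2: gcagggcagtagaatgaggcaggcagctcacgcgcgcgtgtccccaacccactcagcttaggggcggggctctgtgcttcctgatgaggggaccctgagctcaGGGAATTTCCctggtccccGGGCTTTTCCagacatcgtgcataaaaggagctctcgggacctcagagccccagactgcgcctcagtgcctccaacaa
Cxcl3: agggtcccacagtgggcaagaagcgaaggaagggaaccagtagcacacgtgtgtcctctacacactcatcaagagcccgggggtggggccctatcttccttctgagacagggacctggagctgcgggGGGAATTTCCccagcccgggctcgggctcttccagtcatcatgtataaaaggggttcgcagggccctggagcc
Its matches begin at −97 and −78 in Cxcl2 and at −73 in Cxcl3. The octamer ATGCAAAT, the site of the factors that Pou2af1 joins, was held by 2.38% of lower, 1.55% of higher and 1.3% of uncalled genes with a window. The EBF motif, searched as TCCC, any 2 bases and GGGA, was held by 1.12%, 0.58% and 1.03% of them.

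Of 18 ligands, receptors and signal carriers of the interferon pathway 6 were lower and 1 higher, with a median of −0.20 (−0.26 to −0.15 over the alternatives). That is 33.3% lower and 5.56% higher, against 7.14% and 5.25% of all genes tested. The lower count was 4 without either Ebf1 array, 3 without Pou2af1 replicate 1 and 2 without replicate 2, and 2 in the 25-array model and 3 with shared probe sets left out. Ifnb1, which encodes interferon beta, read 5.09 and 5.35 with Ebf1 shRNA and 7.37 and 7.28 in the arrays labelled Pou2af1 shRNA, a difference of −2.10 ± 0.13 (adjusted p = 0.00296). Scramble arrays averaged 5.79, and as the Ebf1 arrays were under the 40th percentile the size is limited by background. Irf7, the factor that amplifies interferon transcription, read 10.33 and 10.21 against 12.27 and 12.27 and differed by −2.003 ± 0.11 (adjusted p = 0.00215). Usp18, a brake on the receptor, differed by −1.73 ± 0.10, and Stat2 by −1.35 ± 0.12, with an adjusted p of 0.0559 and a value of −1.27 without Pou2af1 replicate 2. Irf9 and Irf1 were lower at −0.56 ± 0.11 and −0.51 ± 0.10. The last 2 calls ended without any 1 array (−0.63 to −0.49, adjusted p up to 0.187, and −0.55 to −0.47, adjusted p up to 0.195). The 25-array model gave no call to Usp18 (adjusted p = 0.539), Stat2 (adjusted p = 0.0554), Irf9 (adjusted p = 0.539), Irf1 (adjusted p = 0.059) and Socs3 (adjusted p = 0.105). The receptor chains Ifnar1 (0.18), Ifnar2 (0.05), Ifngr1 (−0.38) and Ifngr2 (−0.14) and the kinases Jak1 (−0.14), Tyk2 (−0.16) and Jak2 (−0.45) did not pass. Socs3, an inhibitor of cytokine signalling, was the member that was higher, at 12.41 and 12.34 against 11.54 and 11.55 (0.83 ± 0.10), and its call ended without Ebf1 replicate 1 (0.80, adjusted p = 0.0504) and without Pou2af1 replicate 1 (0.83, adjusted p = 0.0963) or 2 (0.84, adjusted p = 0.0927).

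Nucleic acid sensors, which detect viral RNA and DNA, were lower in 10 of 16 and higher in 2, with a median of −0.56 (−0.74 to −0.53 over the alternatives). Without 1 Ebf1 array the lower count was 6, and without 1 array labelled Pou2af1 shRNA it was 4, and in the 25-array model it was 3. Ifi213 and Ifi204, of the family of interferon-induced DNA-binding proteins, differed by −2.95 ± 0.13 and −2.20 ± 0.11. Ifi213 read 6.68 and 6.93 against 9.73 and 9.77. The RNA sensors Ifih1 (−1.76 ± 0.12) and Tlr3 (−1.75 ± 0.12) also differed, as did Dhx58 (−1.48 ± 0.13), whose adjusted p was 0.0568 or 0.0549 without Pou2af1 replicate 1 or 2 (−1.47 or −1.50). The higher members were Tlr7 (0.63 ± 0.11) and Ifi203 (0.57 ± 0.12), and the higher count was 0 without any 1 array and in the 25-array model. Values without 1 array were 0.57 to 0.69, adjusted p up to 0.166, for Tlr7 and 0.47 to 0.66, adjusted p up to 0.195, for Ifi203. Tlr7 stood at 0.38 (adjusted p = 0.0896) in the probe set brightest over 25 arrays. The 25-array model ended the calls of Ifi204 (adjusted p = 0.24), Dhx58 (adjusted p = 0.0506), Tlr7 (adjusted p = 0.101) and Ifi203 (adjusted p = 0.0827). Among members that did not pass were the adaptor Mavs (−0.13), Aim2 (−0.05), Tlr9 (−0.14) and Tlr8 (0.55).

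MHC class I genes and their peptide processing partners had 6 of 17 lower and 0 higher, and the count of lower genes was 2 without either Ebf1 array and 1 without either array labelled Pou2af1 shRNA. It was 2 in the 25-array model and 3 with no filter. The median was −0.37 (−0.48 to −0.17 over the alternatives). H2-T24, a nonclassical class I gene, read 8.83 and 8.87 with Ebf1 shRNA and 12.04 and 11.81 in the arrays labelled Pou2af1 shRNA, at 10.64 and 10.71 with scramble shRNA (−3.07 ± 0.12, adjusted p = 0.0017). The classical genes H2-K1 (0.00) and H2-D1 (−0.15) and their partner B2m (−0.16) did not pass, and probe sets of this family may share signal. Psmb10, a subunit of the immunoproteasome, differed by −1.01 ± 0.12, with adjusted p of 0.0901 and 0.0867 without Pou2af1 replicate 1 and 2 (−0.996 and −1.02). Class II genes, which present peptides to helper T cells, were read in 1 list with co-stimulatory genes, called MHC class II below. The list did not go one way, with 2 of 15 higher and 2 lower, 13.3% each. Its median of 0.11 turned negative in some alternatives (−0.08 to 0.23). The higher count was 0 without Pou2af1 replicate 1 and 1 without any other array, and the lower count was 1 and 3 without Ebf1 replicate 1 and 2 and 0 without either of the others. H2-Eb1 was higher by 1.26 ± 0.10 (9.20 and 9.27 against 7.93 and 8.02), with an adjusted p of 0.0556 without Pou2af1 replicate 1 (1.22). H2-DMb2, of the peptide loading complex, was lower at −1.08 ± 0.10, with adjusted p of 0.0675 and 0.0622 without Pou2af1 replicate 1 and 2 (−1.06 and −1.10). Called co-stimulatory genes were Icosl (0.75, adjusted p = 0.0376) and Cd40 (−0.56, adjusted p = 0.034). Both calls ended with no filter, with the replicate block and in the 25-array model. That of Icosl also ended without any 1 array. That of Cd40 ended without any array but Ebf1 replicate 2, where it stood at −1.22. The regulator Ciita (0.48), Cd74 (−0.20), H2-Aa (0.34) and H2-Ab1 (−0.14) did not pass.

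Inflammatory cytokine and NF-kappaB genes past the threshold were mostly higher. Of 28 tested, 10 were higher with Ebf1 shRNA and 2 lower, with a median of 0.34 (0.17 to 0.48 over the alternatives, 0.17 without Ebf1 replicate 1). The higher count was 5 without Ebf1 replicate 1 and 7 or 8 without any other array, and the lower count was 1 without either array labelled Pou2af1 shRNA. Il1f9, which encodes the cytokine IL-36 gamma, read 7.79 and 7.94 against 4.41 and 4.18 (3.57 ± 0.13, adjusted p = 0.0017), with the lower group under the 40th percentile, so that its size is limited by background. Osm, a cytokine of the IL-6 family, read 10.38 and 10.24 against 7.42 and 7.26, with scramble arrays at 8.71 and 8.51, and differed by 2.97 ± 0.12 (adjusted p = 0.0017). Lif, of the same family, read 11.73 and 11.75 against 9.27 and 9.25 and differed by 2.48 ± 0.10. These genes were named for the size of their difference, so a gap wider than that within either pair follows from the choice. Ptges and Ptgs2, enzymes of prostaglandin E2 synthesis, differed by 2.42 ± 0.27 and 1.33 ± 0.11, the NF-kappaB target Traf1 by 2.21 ± 0.13, Il23a by 1.65 ± 0.21 and Il6 by 0.79 ± 0.12. Ptges and Il23a had their lower group at background, and without Ebf1 replicate 2 Ptges was read from another probe set, at 0.87, while it was at 1.51 with its probe sets averaged. Tnfaip3, whose product A20 ends NF-kappaB signalling, went the opposite way, at 8.67 and 8.47 against 10.56 and 10.65 (−2.04 ± 0.12, adjusted p = 0.00274), and Il18 was lower at −0.91 ± 0.11. The inhibitor Nfkbia was higher by 0.69 ± 0.14. Nfkbia lost its call without any 1 array (0.55 to 0.82, adjusted p up to 0.172), Il6 without Ebf1 replicate 1 (0.70, adjusted p = 0.0649) or Pou2af1 replicate 1 (0.76, adjusted p = 0.129) or 2 (0.83, adjusted p = 0.109), Il18 without Pou2af1 replicate 1 (−0.95, adjusted p = 0.0821) or 2 (−0.87, adjusted p = 0.0896) and Ptgs2 without the latter (1.31, adjusted p = 0.053). Calls absent from the 25-array model were those of Ptgs2 (adjusted p = 0.698), Il18 (adjusted p = 0.18), Il6 (adjusted p = 0.145) and Nfkbia (adjusted p = 0.114), and the lower count there was 1. Tnf (−0.44), Il1b (0.44), Nos2 (0.05), Il12b (−0.19) and the NF-kappaB subunits Rela (0.19), Relb (0.23), Rel (−0.35) and Nfkb2 (0.41) did not pass, nor did Bcl3 (1.11, adjusted p = 0.0553) and Csf3 (0.73, adjusted p = 0.0532). The genes Il1a, Il1f6, Il12a and Il10 missed the filter.

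Chemokine ligands, the signals that call leukocytes to a site, split, with 4 of 20 tested higher, 5 lower and a median of 0.02 (−0.04 to 0.16). Those higher included Cxcl2 and Cxcl3, which attract neutrophils. Cxcl2 read 12.13 and 12.17 with Ebf1 shRNA and 7.54 and 7.49 in the arrays labelled Pou2af1 shRNA, a 24.9-fold difference (4.64 ± 0.10 on the log2 scale, adjusted p = 0.0017). Its scramble arrays, at 9.46 and 9.51, lay between. Cxcl3 read 12.46 and 12.17 against 9.40 and 9.34, at 10.02 and 10.10 with scramble shRNA (2.95 ± 0.14). Pf4, the platelet chemokine Cxcl4, differed by 2.72 ± 0.13 and Ccl4 by 1.25 ± 0.14. Lower were the interferon-induced T cell attractants Cxcl10 (−1.47 ± 0.24) and Cxcl11 (−1.11 ± 0.14) and the monocyte attractants Ccl7, Ccl12 and Ccl2. Ccl7 read 8.95 and 9.01 against 10.82 and 10.79 (−1.83 ± 0.10, adjusted p = 0.00239) and Ccl2 13.07 and 13.11 against 13.79 and 13.72 (−0.67 ± 0.10). Ccl12, at −2.51 ± 0.33, rested on dim signals in the lower group, and its adjusted p was 0.0621 without Ebf1 replicate 2 (−2.30), while it was not tested without either array labelled Pou2af1 shRNA. Cxcl11 too had its lower group at background. Lower ligands numbered 3 without Ebf1 replicate 2 and 1 without either array labelled Pou2af1 shRNA or in the 25-array model, where the adjusted p was above the threshold for Ccl7 (0.11), Ccl2 (0.801), Cxcl10 (0.19) and Cxcl11 (0.104). Ccl2 lost its call without any 1 array (−0.70 to −0.63, adjusted p up to 0.139). Without Pou2af1 replicate 1 and 2 Ccl4 stood at 1.31 and 1.20 (adjusted p 0.0745 and 0.0824) and Cxcl10 at −1.50 and −1.44 (adjusted p 0.128 and 0.13). Ccl5 (0.55), Ccl3 (0.36), Ccl6 (0.10) and Ccl9 (0.12) did not pass, and 12 ligands, Cxcl1, Cxcl5 and Cxcl9 among them, missed the filter. Among 11 receptors of chemoattractants 2 were higher and 2 lower (median 0.37, 0.23 to 0.40), with 1 each without either Ebf1 array and 0 without either array labelled Pou2af1 shRNA. These were the formyl peptide receptor Fpr2 (0.77), the platelet activating factor receptor Ptafr (0.84), Cx3cr1 (−0.90) and Ccrl2 (−0.81), and each call ended without 1 or more of the 4 arrays. The 25-array model ended those of Fpr2 (adjusted p = 0.583) and Ccrl2 (adjusted p = 0.624), and Ptafr was at 0.38 with its probe sets averaged.

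The granulocyte list held genes of neutrophil products, receptors and regulators. Of 18 tested, 9 were higher and 3 lower, with a median of 0.64 that was 0.19 with no filter. The higher count was 5 without Ebf1 replicate 1 or either array labelled Pou2af1 shRNA and 6 without Ebf1 replicate 2, and the lower count was 0 without Pou2af1 replicate 1 and 1 without any other array. Calls numbered 4 higher and 0 lower in the 25-array model. Stfa3, a cysteine protease inhibitor, read 12.94 and 12.99 with Ebf1 shRNA and 6.90 and 7.38 in the arrays labelled Pou2af1 shRNA, a 56.7-fold difference (5.83 ± 0.18 on the log2 scale, adjusted p = 0.0017). It was the highest difference of all genes tested, and the scramble arrays, at 6.11 and 5.96, lay below both groups. Stfa genes are close copies, so the probe set may report more than 1 of them. Wfdc21, a secreted protease inhibitor, read 12.97 and 12.98 against 8.87 and 9.05, with scramble arrays at 10.52 and 10.51 between (4.02 ± 0.12). Trem1, a receptor that amplifies inflammation, read 9.03 and 9.01 against 5.89 and 5.64 (3.26 ± 0.13), and the other probe set gave 2.92. The gelatinase Mmp9 differed by 2.62 ± 0.21, the iron-binding protein gene Lcn2 by 1.51 ± 0.11 and the calprotectin subunit S100a8 by 1.03 ± 0.13, while its partner S100a9 stood at 0.19 and did not pass. The lower members were Gfi1, a repressor needed for neutrophil maturation (−1.24 ± 0.10), and the granule protein genes Prtn3 (−0.78 ± 0.13) and Camp (−0.61 ± 0.13). Prtn3 and Camp lost their calls without any 1 array (−0.89 to −0.66, adjusted p up to 0.14, and −0.74 to −0.48, adjusted p up to 0.202), Gfi1 without Pou2af1 replicate 1 (−1.21, adjusted p = 0.0548) and S100a8 without Ebf1 replicate 1 (0.95, adjusted p = 0.0536) or Pou2af1 replicate 1 (1.13, adjusted p = 0.0715) or 2 (0.93, adjusted p = 0.092). Adjusted p in the 25-array model was above the threshold for Lcn2 (0.447), S100a8 (0.446), Gfi1 (0.385), Prtn3 (0.0799) and Camp (0.344). Of the list's members on the array 11 missed the filter, among them the neutrophil granule genes Mpo, Elane, Ltf and Ngp and the receptor gene Csf3r. Mast cell, basophil and eosinophil markers were dim, with 8 of 11 and 3 of 3 under the 40th percentile in all 4 arrays. Summed log2 levels of the mast cell and basophil markers were 54.0 to 55.4 with Ebf1 shRNA and 53.2 in both arrays labelled Pou2af1 shRNA. Of these markers Hdc was called (0.77 ± 0.15). Its call ended without any 1 array, with no filter, with the replicate block and in the 25-array model (adjusted p = 0.341). The part of such cells was not tested.

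**Figure D3:**
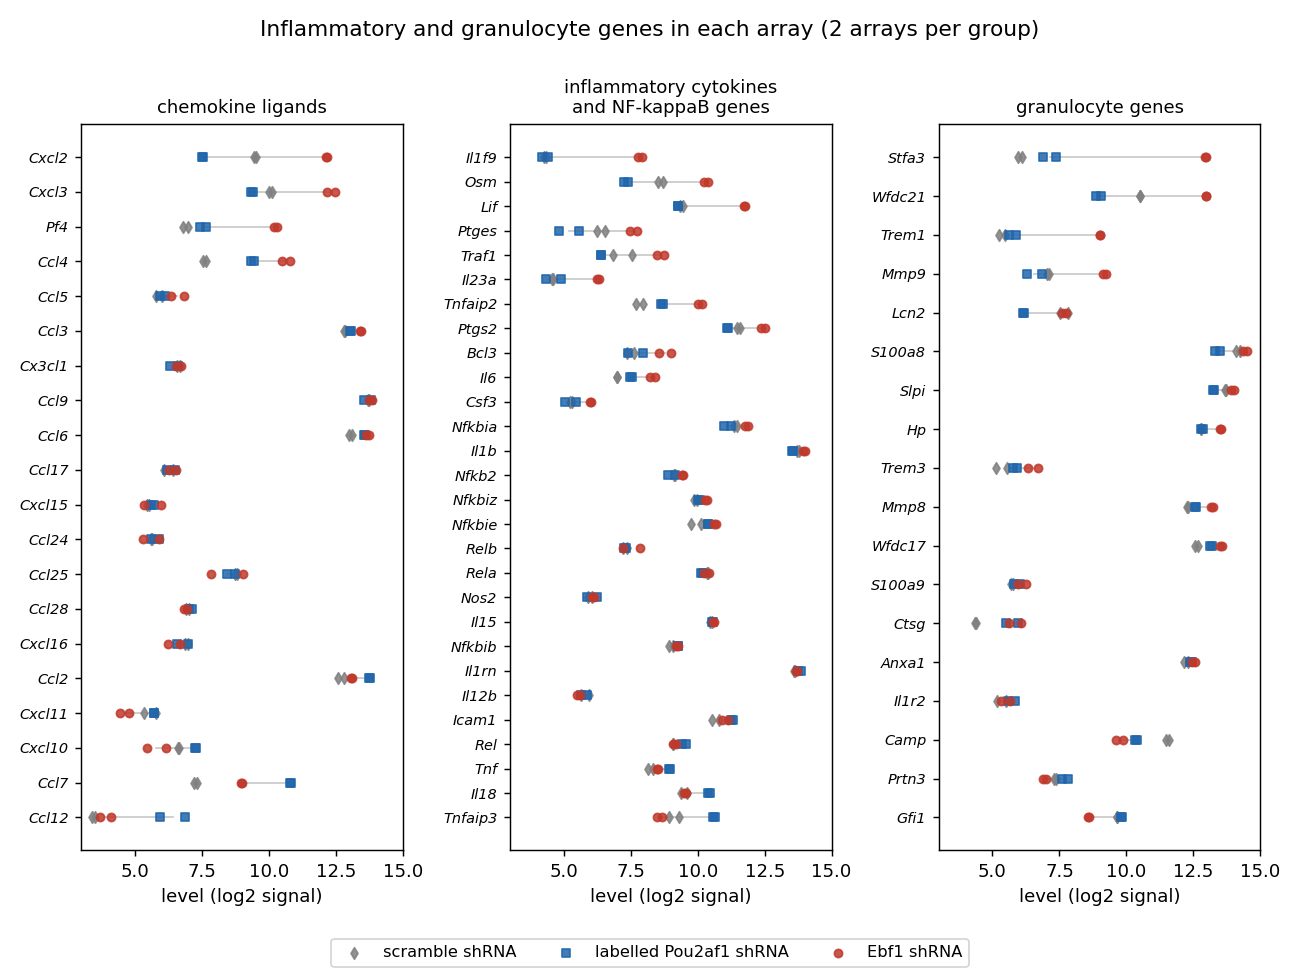
Levels (log2 signal) of all tested chemokine ligands, inflammatory cytokine and NF-kappaB genes, and granulocyte genes in each array, ordered by difference. Red circles are Ebf1 shRNA arrays, blue squares arrays labelled Pou2af1 shRNA and grey diamonds scramble shRNA arrays, 2 per group. Cxcl2, Il1f9 and Stfa3 head the panels at 4.64, 3.57 and 5.83, and Ccl12, Tnfaip3 and Gfi1 close them at −2.51, −2.04 and −1.24.

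Genes of cystine import and glutathione synthesis, many of them targets of the oxidative stress factor NRF2, had 8 of 20 higher and 0 lower, and a median of 0.25 (0.16 to 0.34). The higher count was 4 without either Ebf1 array and 2 without either array labelled Pou2af1 shRNA. Slc7a11, the cystine transporter, read 7.17 and 7.60 against 3.29 and 3.54, at 3.85 and 3.26 with scramble shRNA (3.97 ± 0.19, adjusted p = 0.00187). With the lower group at background this is no exact size. Gclm, a subunit of the enzyme that starts glutathione synthesis, differed by 1.39 ± 0.12 (adjusted p = 0.00545), and its partner Gclc by 0.72 ± 0.10. The metallothionein Mt2 (1.30 ± 0.14) and the thiol reductases Srxn1 (1.09 ± 0.11) and Txnrd1 (0.96 ± 0.12) were higher too, calls that ended without Pou2af1 replicate 1 (1.18, 1.08 and 0.90, adjusted p 0.0687, 0.073 and 0.0965) or replicate 2 (1.41, 1.10 and 1.01, adjusted p 0.0505, 0.0696 and 0.0824). Gclc lost its call without any 1 array (0.68 to 0.76, adjusted p up to 0.122) and Mt2 in the 25-array model (adjusted p = 0.203). Nfe2l2, which encodes NRF2, stood at 0.03, and Hmox1, a heme-degrading NRF2 target, at −0.07. Slc3a2, the heavy chain partner of Slc7a11, was at −0.46 (adjusted p = 0.0544). None of these 3 passed the threshold, and Nqo1 missed the filter.

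Other genes of the 15 highest fell into no list. Mansc1, a membrane protein gene, read 7.60 and 7.76 against 4.08 and 3.86 (3.71 ± 0.13), and Cd55, which protects cells from complement, 8.29 and 8.37 against 5.08 and 5.20 (3.19 ± 0.11), both with the lower group at background. The potassium channel Kcnn3 differed by 3.08 ± 0.15, the laminin chain Lamb1 by 3.07 ± 0.13, the branching glycosyltransferase Gcnt2 by 3.05 ± 0.13, coagulation factor F5 by 2.95 ± 0.12 and the lipid droplet protein Hilpda by 2.93 ± 0.13. Among the 15 lowest, Rasgrp3, an activator of Ras proteins, read 5.24 and 5.14 against 8.32 and 8.46 (−3.20 ± 0.11), with Ebf1 arrays at background. Phf11d, near the lower end as well, read 8.28 and 8.11 against 11.22 and 11.20 (−3.01 ± 0.11). Pmaip1, which encodes the cell death protein Noxa, read 7.93 and 7.96 against 10.75 and 10.70 (−2.78 ± 0.10), and the activation marker Cd69 7.18 and 6.74 against 9.71 and 9.72 (−2.75 ± 0.17). Gcnt2 was at 1.68 with its probe sets averaged, as its other 6 probe sets gave 0.48 to 2.79, 4 of them called. The genes of this paragraph were picked by size among called genes whose groups do not overlap, so their wide gap follows from the choice.

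Macrophage identity was read from 34 markers on the array. Csf1r, the receptor of the macrophage growth factor, stood at −0.22 and Lyz2, Tyrobp, Fcgr3 and Mpeg1 at 0.17, −0.11, 0.04 and 0.06, without passing, and Csf1r read 13.06 to 13.31 in the 4 arrays. Under the 40th percentile in all 4 arrays were 8 markers of tissue macrophages, namely C1qa, C1qb, C1qc, Vsig4, Timd4, Cd163, Mertk and Adgre4. Of 25 tested, 5 were higher and 8 lower, with a median of −0.22 (−0.25 to −0.10). The scramble mean lay below both groups for 9 of these called markers and between the groups for 4. Among all 1539 called genes it lay below both for 323 and between for 1081. The lower count was 2 without either array labelled Pou2af1 shRNA and 5 without either Ebf1 array, and the higher count was 2 without either Ebf1 array and 3 without either of the others. The 25-array model called 3 higher and 3 lower. Adgre1, which encodes the marker F4/80, read 5.57 and 5.28 with Ebf1 shRNA and 7.72 and 7.45 in the arrays labelled Pou2af1 shRNA (−2.16 ± 0.16, adjusted p = 0.0039), with the lower group at background. Siglec1, a sialic acid receptor, read 9.24 and 9.58 against 11.43 and 11.42 (−2.02 ± 0.15), and Fcgr1, the high-affinity antibody receptor, 10.71 and 10.83 against 12.32 and 12.29 (−1.53 ± 0.11). The mannose receptor Mrc1 was lower at −1.29 ± 0.27, with its lower group at background. Both Fcgr1 (adjusted p = 0.0778) and Mrc1 (adjusted p = 0.0784) lost their calls in the 25-array model. By contrast the integrins Itgam and Itgax, known as CD11b and CD11c, were higher. Itgam read 10.33 and 10.43 against 8.93 and 8.77 (1.53 ± 0.12, adjusted p = 0.00409) and Itgax 10.12 and 10.10 against 8.80 and 8.56 (1.43 ± 0.13). Lgals3, a galactose-binding lectin, was higher by 2.17 ± 0.27, with adjusted p of 0.0566 and 0.0543 without Ebf1 replicate 1 and 2 (2.14 and 2.19).

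The MS4A family encodes membrane proteins that partner with immune receptors, and its myeloid members lie side by side on chromosome 19. Of 9 tested, 6 were lower and 0 higher, with a median of −2.05, which was −0.37 with no filter and −0.75 without either array labelled Pou2af1 shRNA. The count was 3 without either of these arrays. Ms4a6b read 7.73 and 7.62 against 10.51 and 10.30, while the scramble arrays, at 5.83 and 5.26, lay below both groups (−2.73 ± 0.12, adjusted p = 0.00187). Ms4a6c had the same order, with 8.95 and 8.80 against 10.96 and 10.91 and a scramble mean of 6.73 (−2.06 ± 0.11). Ms4a7 read 4.83 and 5.03 against 7.96 and 7.39 (−2.74 ± 0.22) and Ms4a4c 5.53 and 5.73 against 7.76 and 8.23 (−2.37 ± 0.19). Ms4a4d was lower at −2.05 ± 0.17 and Ms4a6d by −0.75 ± 0.10. Neither passed in the 25-array model (adjusted p 0.322 and 0.628), Ms4a6d lost its call without any 1 array (−0.78 to −0.72, adjusted p up to 0.113), and Ms4a6c was at −1.29 with its probe sets averaged. Ms4a7 and Ms4a4d had their lower group at background and were not tested without either array labelled Pou2af1 shRNA. Ms4a3 (−0.37), Ms4a15 (0.16) and Ms4a8a (0.53) did not pass, and Ms4a1, Ms4a2, Ms4a4b and Ms4a10 missed the filter.

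Toll-like receptor pathway genes, lectins and scavenger receptors were compared too. Of 17 genes of the Toll-like receptor pathway 3 were lower and 0 higher, with a median of −0.14 (−0.22 to −0.11). That is 17.6% lower and 0% higher, against 7.14% and 5.25% of all genes tested. Cd180 and its partner Ly86, which form a receptor complex related to that of endotoxin, read 7.95 and 7.95 against 10.06 and 10.08 (−2.12 ± 0.10) and 6.21 and 6.02 against 8.03 and 8.34 (−2.07 ± 0.15). The endotoxin receptor Tlr4 (0.23), its partner Ly96 (−0.19), Tlr2 (−0.14) and the adaptor Myd88 (−0.35) did not pass, and Irak2, at −0.49 ± 0.10, lost its call without any 1 array (adjusted p up to 0.576 over the alternatives). Of 16 C-type lectins and scavenger receptors 1 was higher and 2 lower, with a median of 0.11 (0.06 to 0.23). That is 6.25% higher and 12.5% lower, against 5.25% and 7.14% of all genes tested. Clec4a3 read 7.36 and 7.19 against 9.94 and 10.04 (−2.71 ± 0.12, adjusted p = 0.00176). Clec2d (−0.67 ± 0.11) and Clec4d (0.80 ± 0.11) were called over the 4 arrays and not without any 1 of them, nor in the 25-array model (adjusted p 0.572 and 0.377).

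The pre-B cell programme from which these cells were converted was compared next. Of 27 tested pre-B receptor and B cell surface genes 8 were lower and 3 higher, with a median of −0.33 (−0.34 to −0.30). Lower genes numbered 5 without either Ebf1 array, 3 without Pou2af1 replicate 1 and 2 without replicate 2, and the higher count was 1, 2, 0 and 0 in the same order of arrays. The 25-array model called 4 lower and 1 higher. Igll1 and Vpreb1 encode the surrogate light chain of the pre-B receptor. Igll1 read 7.30 and 7.76 with Ebf1 shRNA and 9.68 and 9.70 in the arrays labelled Pou2af1 shRNA, with a scramble mean of 8.27 (−2.16 ± 0.17, adjusted p = 0.00482). With shared probe sets left out it was at −0.82 (adjusted p = 0.0404). Vpreb1 read 8.10 and 8.67 against 10.31 and 10.40 (−1.98 ± 0.21), and its adjusted p was 0.0685 and 0.071 without Pou2af1 replicate 1 and 2 (−2.02 and −1.93). Tnfrsf13c, the receptor of the survival factor BAFF, was lower at −1.95 ± 0.14. Ighm, the mu heavy chain, differed by −1.32 ± 0.18, yet it was at −0.12 (adjusted p = 0.415) with the probe sets of a gene averaged and at −0.20 (adjusted p = 0.387) with shared probe sets left out. Its adjusted p was 0.0576, 0.0653 and 0.0696 without Ebf1 replicate 1 (−1.39), Ebf1 replicate 2 (−1.25) and Pou2af1 replicate 2 (−1.09). The B cell receptor chain Cd79a (−0.31) and the inhibitory receptor Cd22 (−0.70) did not pass. Fcrla was higher by 1.22 ± 0.12, with adjusted p of 0.0655 and 0.0691 without Pou2af1 replicate 1 and 2 (1.26 and 1.19), and Vpreb3 and Bst1 were higher by 0.80 ± 0.14 and 0.64 ± 0.10. Bst1 lost its call without any 1 array (0.61 to 0.67, adjusted p up to 0.144) and Vpreb3 without Ebf1 replicate 1 (0.66, adjusted p = 0.0803) or Pou2af1 replicate 1 (0.73, adjusted p = 0.163) or 2 (0.87, adjusted p = 0.122). The 25-array model gave no call to Ighm (adjusted p = 0.308), Vpreb3 (adjusted p = 0.243) and Bst1 (adjusted p = 0.636), and Fcrla was at 0.79 with its probe sets averaged. Rag1 and Rag2, the recombinase of antigen receptor genes, missed the filter.

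Of 25 tested B cell transcription regulators 4 were lower and 6 higher, with a median of 0.07 that took either sign in the alternatives (−0.12 to 0.11). Pax5, the factor that maintains B cell identity, read 6.60 and 6.69 against 8.63 and 8.28, at 7.46 on average with scramble shRNA (−1.81 ± 0.15, adjusted p = 0.00529), and was at −1.19 with its probe sets averaged. Myb (−1.17 ± 0.12), Tcf4 (−1.11 ± 0.11) and Lef1 (−1.001 ± 0.15) were lower too, and their calls ended without Pou2af1 replicate 1 (−1.13, −1.18 and −0.98, adjusted p 0.0771, 0.057 and 0.124) or 2 (−1.22, −1.05 and −1.02, adjusted p 0.0677, 0.0672 and 0.112). Ets1 was higher by 1.01 ± 0.11, with adjusted p of 0.0829 and 0.0697 without these arrays (0.97 and 1.05). The other higher members, Runx3 (0.73), Id3 (0.68), Sox4 (0.67), Erg (0.57) and Xbp1 (0.51), had no call without either array labelled Pou2af1 shRNA, where the higher count was 0, against 1 without either Ebf1 array, and the lower count was 1 without either array labelled Pou2af1 shRNA. Erg was at 0.35 without Pou2af1 replicate 1 and 1.28 without Ebf1 replicate 2. In the 25-array model 0 were higher and 2 lower, with adjusted p above the threshold for Tcf4 (0.0826), Lef1 (0.0692), Ets1 (0.231), Runx3 (0.0745), Id3 (0.585), Sox4 (0.478), Erg (0.497) and Xbp1 (0.32). The E protein genes Tcf3 (0.07) and Tcf12 (−0.30), Ikzf1 (−0.29) and Foxo1 (0.41) did not pass.

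**Figure D4:**
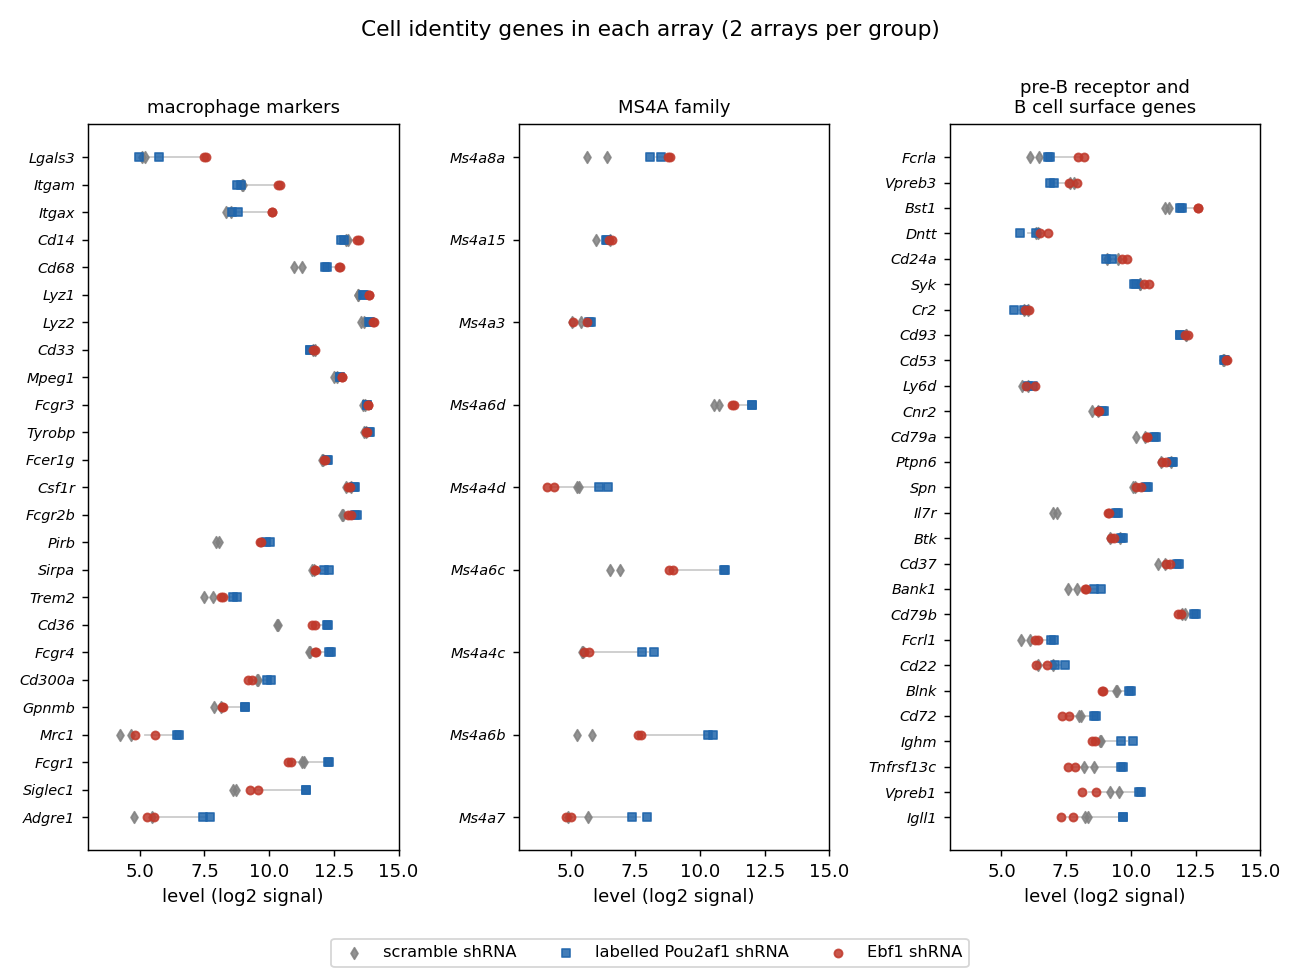
Levels (log2 signal) of all tested macrophage markers, MS4A genes, and pre-B receptor and B cell surface genes in each array, ordered by difference. Red circles are Ebf1 shRNA arrays, blue squares arrays labelled Pou2af1 shRNA and grey diamonds scramble shRNA arrays, 2 per group. Lgals3, Itgam and Itgax lie at the top of the first panel and Adgre1 and Siglec1 at its foot, and the scramble arrays of Ms4a6b and Ms4a6c lie below both groups.

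Myeloid transcription regulators had 7 of 35 higher and 7 lower, with a median of −0.07 (−0.14 to −0.02). The higher count was 2 without any 1 array, and the lower count was 5 without either Ebf1 array and 0 without either array labelled Pou2af1 shRNA. Bhlhe40, a repressor active in stimulated macrophages, read 10.38 and 10.37 with Ebf1 shRNA and 8.30 and 8.15 in the arrays labelled Pou2af1 shRNA (2.15 ± 0.11, adjusted p = 0.0021). Gfi1b, a repressor of the same family as Gfi1, read 10.83 and 10.96 against 9.10 and 9.13, with the scramble mean, 11.12, above both (1.78 ± 0.11). The AP-1 genes Fosl2 and Junb (0.73 ± 0.10 and 0.71 ± 0.15) and Cebpb (0.61 ± 0.10), a factor of inflammatory gene control, were higher as well. Lower were Irf4 (−1.45 ± 0.16), Atf3 (−1.43 ± 0.15), Bhlhe41 (−1.26 ± 0.12), Batf2 (−1.15 ± 0.11) and Irf8 (−1.04 ± 0.11), an interferon regulatory factor needed for monocytes. Without Pou2af1 replicate 1 the values of Irf4, Atf3 and Bhlhe41 were −1.31, −1.52 and −1.26 (adjusted p 0.0731, 0.056 and 0.0675), and without replicate 2 they were −1.58, −1.33 and −1.27 (adjusted p 0.0547, 0.0681 and 0.0666). For Batf2 and Irf8 these values were −1.18 and −1.10 (adjusted p 0.062 and 0.0645) and −1.12 and −0.99 (adjusted p 0.0652 and 0.0733). Fosl2 (0.70 to 0.76, adjusted p up to 0.115), Junb (0.59 to 0.83, adjusted p up to 0.19) and Cebpb (0.59 to 0.63, adjusted p up to 0.142) lost their calls without any 1 array, and in the 25-array model (adjusted p 0.15, 0.402 and 0.59), where the higher count was 3. Spi1, the gene of the master myeloid factor PU.1, was at −0.53 and did not pass, and Cebpa missed the filter.

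Cell cycle, stress, lysosomal and cytokine receptor genes were read last. Of 39 tested cell cycle genes 2 were higher and 5 lower, with a median of −0.05 (−0.10 to −0.0046). That is 5.13% higher against 5.25% of all genes tested, and 12.8% lower against 7.14%. In the 25-array model 1 was higher and 1 lower. The lower count was 0 without either array labelled Pou2af1 shRNA and 3 without Ebf1 replicate 1, and the higher count was 1 without any array but Ebf1 replicate 1. Cdkn2c, an inhibitor of the G1 kinases, read 9.14 and 9.14 against 7.31 and 7.61 (1.68 ± 0.14), and the replication helicase subunit Mcm6 differed by −1.15 ± 0.21 with adjusted p of 0.155 and 0.135 without Pou2af1 replicate 1 and 2 (−1.11 and −1.18) and of 0.0915 in the 25-array model. Aurkb was the lowest member (−1.43, limma adjusted p = 0.00772) and kept its call in the 12 alternatives that tested it. E2f8 was at −1.13 (adjusted p = 0.0078), a call that ended without Pou2af1 replicate 1 or 2 and in the 25-array model. The proliferation marker Mki67 (0.28), Top2a (−0.02) and Cdk1 (−0.05) did not pass. Of 26 amino acid stress genes 2 were higher and 6 lower, with a median of −0.17 (−0.25 to −0.07) and a lower count of 3 without Ebf1 replicate 1, 4 without Ebf1 replicate 2 and 0 without either of the others. The higher count was 1 without Ebf1 replicate 2 and 0 without any other array, and the 25-array model called 0 higher and 1 lower. Over the 4 arrays 7.69% of the stress genes were higher and 23.1% lower, against 5.25% and 7.14% of all genes tested. Their regulator Atf4 stood at 0.01. Of 23 lysosomal genes 5 were lower (21.7%) and 1 higher (4.35%), with a median of −0.27 (−0.30 to −0.19). The protease gene Ctsl was the higher one, at 12.09 and 12.17 against 10.81 and 10.63 (1.41 ± 0.12), but it was at 0.96 (adjusted p = 0.0508) with probe sets averaged and at 0.51 (adjusted p = 0.447) with shared probe sets left out. Legumain, encoded by Lgmn, was lower at −1.37 ± 0.14, with adjusted p of 0.0708 and 0.0691 without Pou2af1 replicate 1 and 2 (−1.37 in both), and the lysosomal lower count was 1 without either Ebf1 array, 0 without either of the others and 2 in the 25-array model. Of 27 cytokine receptors 3 were higher (11.1%) and 6 lower (22.2%), with a median of −0.06 (−0.11 to −0.01). The IL-2 receptor chain Il2ra read 7.06 and 6.50 against 9.22 and 8.69 (−2.17 ± 0.26), with an adjusted p of 0.072 without Pou2af1 replicate 1 (−1.90). Il17rd differed by −2.16 ± 0.15, with its lower group at background. Receptor lower counts were 2 and 3 without Ebf1 replicate 1 and 2, and 0 and 1 without Pou2af1 replicate 1 and 2, and the higher count was 1 without either Ebf1 array and 0 without either of the others or in the 25-array model.

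**Figure D5:**
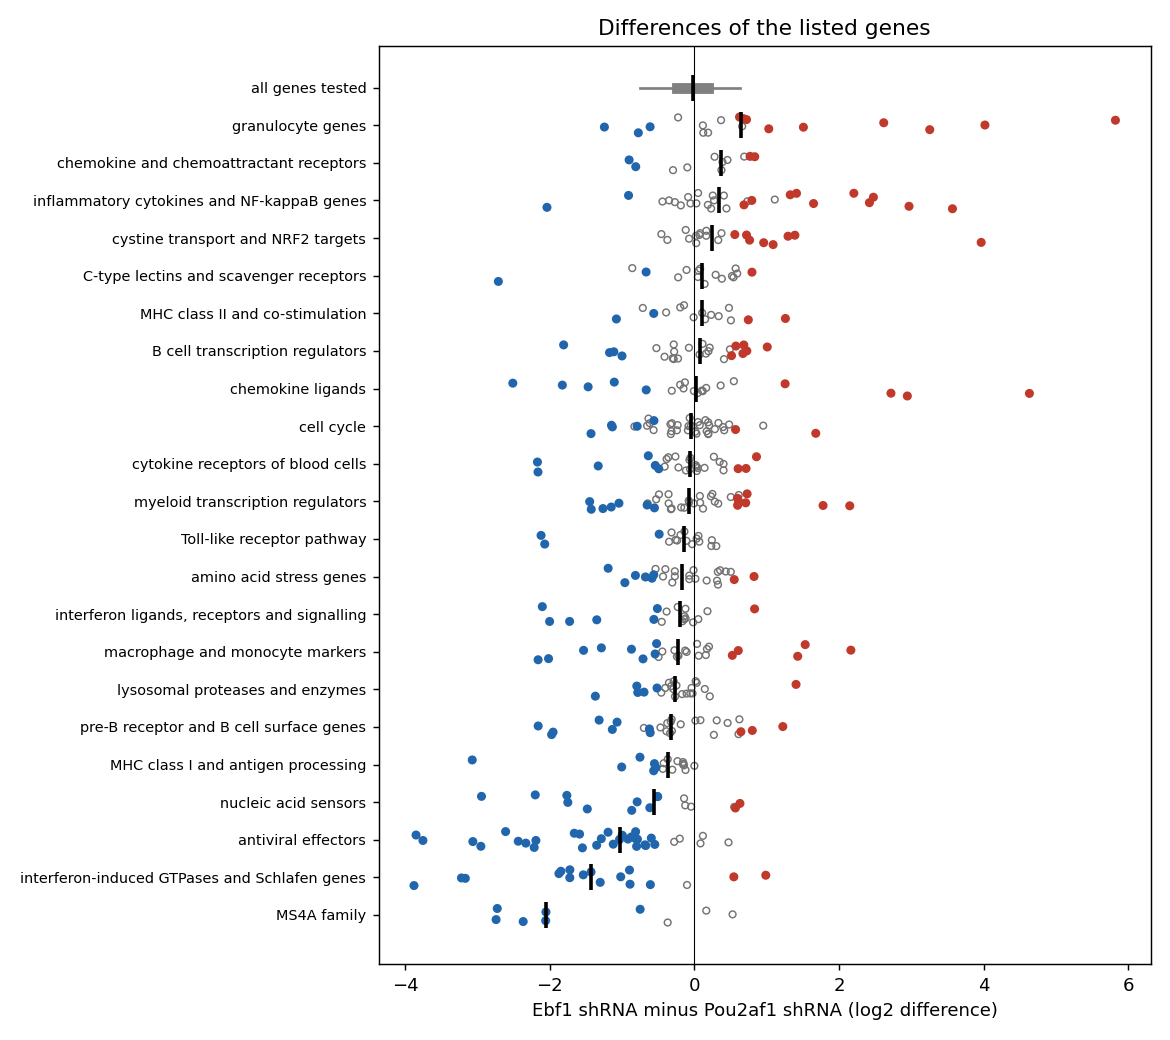
Log2 difference, Ebf1 shRNA minus Pou2af1 shRNA, of every tested gene in 22 lists (points, spread vertically for legibility). Red and blue points passed the threshold as higher and lower, open points did not, and the black bar is the list's median. The top row gives all 12420 genes tested (thick bar the middle 50%, thin line the middle 90%), and medians run from 0.64 for granulocyte genes to −2.05 for the MS4A family, with −1.04 for antiviral effectors.

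Markers of cells that the cultures could hold besides macrophages were read in the same arrays. For eosinophils 3 of 3 markers lay under the 40th percentile in all 4 arrays, for dendritic cells 3 of 8, for T and NK cells 4 of 10, for plasma cells 2 of 7, and for fibroblasts and stroma 4 of 9. For erythroid and megakaryocyte cells 3 of 8 did, Hba-a1, Klf1 and Gata1, while Pf4 and the platelet integrin Itga2b (0.65 ± 0.12, a call lost without any 1 array and in the 25-array model, adjusted p = 0.065) were higher. Summed log2 levels of these 8 were 50.1 to 51.1 with Ebf1 shRNA and 47.0 to 47.7 in the arrays labelled Pou2af1 shRNA. Pf4 had the largest tested difference among them, 2.72, while Epor (0.40) and Gp9 (0.13) did not pass. The sum is therefore no measure of the whole set, and the part of such cells in the differences was not tested. Of the stromal markers Acta2, smooth muscle actin, was higher by 1.00 ± 0.12, with adjusted p of 0.0675 and 0.0838 without Pou2af1 replicate 1 and 2 (1.09 and 0.92). It was at 0.53 (adjusted p = 0.0594) with shared probe sets left out, and its adjusted p was 0.682 in the 25-array model. Pdgfrb was higher too (0.49, limma adjusted p = 0.0482), a call that ended without any 1 array and in the 25-array model. Col1a1 (−0.37) went the other way and did not pass. The summed stromal levels were 54.2 to 55.1 against 51.9 to 53.1. The sums were 14.9 to 15.2 against 13.4 to 13.5 for eosinophil markers, 44.2 to 44.6 against 43.6 to 44.3 for dendritic cells, 59.9 to 61.8 against 58.2 to 61.5 for T and NK cells and 54.9 to 55.7 against 55.2 to 55.9 for plasma cells, and their part was not tested either.

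Of 23199 probe sets tested, 2709 passed the threshold (11.7%). Among 5941 genes with more than 1 tested probe set, 516 had more than 1 past the threshold, and in 2 of these they disagreed in direction. Marchf5, a mitochondrial ubiquitin ligase, had probe sets at −0.68, −0.76 and 0.69, and the kinase Mast4 at −0.78, −1.50, −1.71 and 0.49, so neither gene has a settled direction here.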

How the data were processed

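The authors deposited log2 signals per probe set of 25 arrays, made with RMA per the submitters' processing notes, with no version in the sources used here. Per the labels' protocols, 100 ng of total RNA was amplified per array. Of 45101 probe sets, 64 controls, 932 with several genes and 9160 not named in the annotation were left out. A linear model of the deposited values of the 4 arrays, with 2 residual degrees of freedom, was run in R (4.3.3) by limma's eBayes (3.58.1). Probe sets above the 40th percentile of their array in at least 2 arrays were kept. The variance pooled over probe sets entered each SE and p-value with 2.946 prior degrees of freedom. P-values are two-sided and were adjusted by Benjamini-Hochberg over all 23199 probe sets tested. Where a gene had several, the probe set brightest on average in the 4 arrays stood for it. Named genes were Ebf1, Pou2af1, the 15 highest and 15 lowest called genes whose groups do not overlap (clone-style names passed over), up to 5 called and 2 uncalled members per list, members needed to account for a list, and genes with called probe sets in opposite directions. The members and lists were chosen with earlier results of these data known. Alternatives changed the filter, the arrays in the model, the choice of probe set, the scaling, the variance model, a fold minimum, the replicate block and each array left out. Promoters came from RefSeq (GRCm38.p6). Array number limits the precision.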

Additional observations from a re-analysis of the deposited data

How the results depend on the processing

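Leaving out 1 array gave 252 to 712 genes past the threshold, 141 to 257 higher and 111 to 455 lower. The count was 954 (405 higher, 549 lower) with no filter, 668 (326 and 342) with all 25 arrays in the model, 2816 (1134 and 1682) with a mean-variance trend and robust fit, and 554 (250 and 304) when a difference of at least 1 was required too. Whether replicate numbers pair the samples is not in the labels. Replicate 1 minus 2 with Ebf1 shRNA correlated at 0.025 over probe sets with the same difference of the arrays labelled Pou2af1 shRNA. With 2 arrays per group this cannot decide it. With the replicate number as a block 883 genes passed (379 and 504). Quantile normalization or centring moved the share of higher genes from 42.4% to 46.4% or 47.4%. No named gene past the threshold changed sign in the alternatives run, while the medians of MHC class II, chemokine ligands and B cell regulators took either sign. With no filter the median was −1.37 for GTPases and Schlafen genes, −0.31 for MHC class I, 0.23 for chemoattractant receptors, 0.43 for inflammatory genes, 0.19 for granulocyte genes, −0.12 for macrophage markers, −0.37 for MS4A, 0.34 for NRF2 targets and −0.071 for amino acid stress. With the filter at the 60th percentile the median was −0.70 for sensors, −0.077 for MHC class II, 0.28 for chemoattractant receptors, 0.70 for granulocyte genes, −0.17 for macrophage markers and −2.21 for MS4A. With probe sets averaged the median was −1.10 for antiviral effectors, −0.69 for sensors, −0.17 for MHC class I, 0.44 for inflammatory genes, 0.22 for lectins, −0.90 for MS4A and −0.12 for B cell regulators. With the probe set highest over 25 arrays the median was −0.74 for sensors, 0.0104 for MHC class II, 0.23 for lectins, 0.16 for NRF2 targets and −0.235 for amino acid stress. With shared probe sets left out the median was −1.37 for GTPases and Schlafen genes, −0.48 for MHC class I, 0.23 for MHC class II, 0.48 for inflammatory genes, 0.50 for granulocyte genes, −0.13 for macrophage markers, −1.35 for MS4A, 0.16 for NRF2 targets, −0.25 for amino acid stress and −0.185 for lysosome. With quantile normalization the median was −0.0046 for cell cycle and −0.0051 for cytokine receptors. With arrays centred the median was −0.53 for sensors, −1.40 for GTPases and Schlafen genes, −0.30 for pre-B genes, 0.28 for NRF2 targets and −0.24 for lysosome. Without 1 array the medians spanned −0.26 to −0.15 for interferon signalling, −1.10 to −1.01 for antiviral effectors, −0.59 to −0.55 for sensors, −1.40 to −1.30 for GTPases and Schlafen genes, −0.39 to −0.35 for MHC class I, −0.028 to 0.17 for MHC class II, 0.005 to 0.16 for chemokine ligands, 0.29 to 0.34 for chemoattractant receptors, 0.17 to 0.36 for inflammatory genes, 0.53 to 0.66 for granulocyte genes, −0.25 to −0.10 for macrophage markers, 0.086 to 0.22 for lectins, −0.22 to −0.12 for Toll-like receptors, −1.98 to −0.75 for MS4A, −0.14 to −0.025 for myeloid regulators, −0.11 to −0.0003 for B cell regulators, −0.34 to −0.31 for pre-B genes, 0.18 to 0.27 for NRF2 targets, −0.21 to −0.14 for amino acid stress, −0.30 to −0.23 for lysosome, −0.097 to −0.019 for cell cycle and −0.11 to −0.026 for cytokine receptors. For each moved value the cause was not tested. Of 122 named genes past the threshold, 57 kept their call in every alternative that tested them. Some of the 57 missed the filter in some alternatives, such as Aurkb, which was tested in 12. An exact permutation test of 2 against 2 arrays cannot go below a two-sided p of 0.333. Signals under the 40th percentile set no exact size.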

Other observations

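Called genes that lie next to each other were listed after their values were seen, with no test, in the RefSeq order of 12353 tested genes with a position. There were 34 runs of at least 3 neighbours called in the same direction, 22 lower and 12 higher with Ebf1 shRNA. The longest held 7 genes on chromosome 19, the MS4A genes from Ms4a7 to Ms4a6d with Gm8369 among them, at −2.74 to −0.75. Ifi213, Ifi209, Ifi207, Ifi204 and Mndal formed a run of 5 on chromosome 1, at −2.95 to −0.51, and the Ifit genes a run of 4 on chromosome 19, at −3.85 to −2.44.

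Among the runs outside the gene lists, the endothelial and platelet selectin genes Sele (1.70 ± 0.23, adjusted p = 0.0176 in the limma fit) and Selp (1.31 ± 0.15, adjusted p = 0.0118) were higher together with their neighbour F5 on chromosome 1. The immune cell receptor Slamf7 (−1.996 ± 0.21, adjusted p = 0.00915 in the limma fit) was lower beside Cd48 (−0.60) and Slamf1 (−1.06). The apolipoprotein genes Apoc1 (−1.71 ± 0.11, adjusted p = 0.00296 in the limma fit), Apoc2 (−1.42) and Apoc4 (−0.97) were lower as neighbours on chromosome 7. Osm and Lif, both in the inflammatory list above, formed a higher run with Castor1 on chromosome 11. Mir155hg, the host transcript of miR-155, was higher at 1.54 ± 0.20.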
